A study of Mus musculus with 2 samples.

Results

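The cells described here are CD4 T cells of mouse fat and spleen that carried transcripts of both chemokine receptors Cxcr6 and Cxcr3 and none of Foxp3, the regulator that defines Treg cells. They were chosen by unique molecular identifiers (UMIs, each standing for 1 captured transcript). A member had at least 1 UMI of Cxcr6 and of Cxcr3 and none of Foxp3, Klrb1c, Gzma, Gzmb or Il1rl1. The rule found 1462 members among 12789 T cells, 584 in library 1 and 878 in library 2. Of 1784 T cells with both receptors and no Foxp3, 322 were left out, with Klrb1c in 124 of them, a granzyme in 220 and Il1rl1 in 27. These 7 genes and the receptor chain genes Trbc1 and Trbc2, which picked out the T cells, describe the choice and were not tested. Members were set against the 7711 Foxp3-negative T cells with neither receptor, called double-zero cells below.

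CXCR3 is the receptor for the interferon-inducible chemokines CXCL9 and CXCL10, and CXCR6 is the receptor for CXCL16, which is made in many tissues. Th1 cells are CD4 T cells directed by the transcription factor T-bet, which Tbx21 encodes, and they secrete interferon-gamma, which Ifng encodes. CXCR6 is common on effector and resident memory T cells of tissues, whereas CCR7 guides naive and recirculating cells into lymph nodes.

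All groups came from 8-week-old male WT C57BL/6J mice, and no treatment was named. The tissues were brown adipose tissue (BAT), subcutaneous (SAT) and visceral (VAT) fat, and spleen. Fat was digested with collagenase while spleen was dissociated mechanically alone, so that the way of making the suspension cannot be told apart from the tissue. Live cells positive for TCRb, CD3 and CD4 were sorted in successive rounds. Each of 2 experiments gave 1 droplet library of 8 hashed samples, 2 per tissue, with replicates 1 and 2 in experiment 1 and replicates 3 and 4 in experiment 2. The labels do not say whether duplicates were separate animals or what VAT was cut from, so the spread between hashed samples may be technical. The p-values of tissue comparisons measure this spread. Those of members against other cells of the same samples measure how far that difference varied between hashed samples.

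The libraries held 29153747 and 43879975 gene UMIs and shared 9 cell barcodes. Members had medians of 6228.5 and 4759 UMIs in libraries 1 and 2, against 6000.5 and 4244 in double-zero cells. Several samples' hashtags marked 8.73% and 13.6% of members, against 5.59% and 9.86% of double-zero cells, and these cells entered no comparison of hashed samples. The hashtags of SAT replicate 1 and BAT replicate 4 were weakly separated from their background, so these samples may hold cells of other samples. A stricter call kept 294 of 589 and 564 of 673 of their cells.

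T cell genes and the Th1 genes Ifng and Tbx21 were found in a larger share of members than of double-zero cells. Members were chosen with earlier results of these data known, so the shares describe them and do not test a Th1 identity. Cd3e was found in 87.0% of members and 76.5% of double-zero cells, and Cd4 in 60.3% and 47.5%. Ifng was found in 51.8% of members and 4.24% of double-zero cells, and Tbx21 in 40.2% and 2.37%. With every cell thinned to 1000 UMIs, Ifng was found in 18.9% of members and 1.89% of double-zero cells, and Tbx21 in 10.2% and 0.804%. The background of free RNA was read in 24 B-like cells, which had Cd79a and neither Trbc gene and a median of 4543.5 UMIs. None of the 24 had Ifng or Tbx21, which allows a share of up to 12.5% if 3 counts are taken as the limit.

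Genes of other T cells were found in members at shares between 0.342% and 46.2%. Cxcr5, the Tfh receptor, was found in 0.958% of members and 0.687% of double-zero cells. Zbtb16, the regulator of NKT cells, was found in 2.87% of members and 0.182% of double-zero cells. Cd160, also taken as a marker of NKT cells, was found in 9.51% of members and 1.58% of double-zero cells. Il13, a Th2 cytokine, was found in 0.342% of members and in none of the double-zero cells. Gata3, the Th2 regulator that other T cells also express, was found in 46.2% of members and 19.9% of double-zero cells. Of the CD8 genes, Cd8a was found in 1.03% of members and 0.311% of double-zero cells. Cd8b1 went the other way, at 3.42% of members and 5.89% of double-zero cells. Of genes that Treg cells carry, Ikzf2, which encodes Helios, was found in 18.2% of members and 7.28% of double-zero cells. Ctla4, an inhibitory receptor, was found in 11.97% and 4.19% of these classes, and Il2ra, another such gene, in 2.87% and 2.46%. Pdcd1, which encodes PD-1 and is high in Tfh cells, was found in 8.89% and 1.83%, and Tmem176b, a gene of the Th17 list, in 6.57% and 1.98%. Ikzf2, Ctla4 and Pdcd1 were found in 19.9%, 15.3% and 9.01% of cells with Cxcr3 alone, and Il2ra in 2.27%. With cells thinned as for Ifng, Ikzf2 was found in 5.34% of members and 3.59% of double-zero cells, and Ctla4 in 3.28% and 1.37%. Il2ra then went the other way, at 0.410% of members and 0.713% of double-zero cells.

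The choice by 2 receptors was also read against free RNA. None of the 24 B-like cells had both receptors, which allows up to 12.5% by the same limit and up to 14.2% by the exact binomial 95% interval. Of 200 barcodes with neither Trbc gene, 6 had both, or 3% with an exact binomial 95% interval of 1.11% to 6.42%, at a median of 3165.5 UMIs. Some of these barcodes may be T cells. In 215 members each receptor rested on 1 UMI, and a further 78 T cells had both receptors and Foxp3 and were not members. Intervals and floors cover counting error only.

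The promoters of a receptor that chose the cells and of both defining Th1 genes are shown to place the genes in the genome. They are the 250 bases before the RefSeq start on GRCm38.p6, written 5′ to 3′ on the strand of the gene, in lower case, with the letters of a searched motif in capitals.
Cxcr6, chr9:123806227-123806476, plus strand: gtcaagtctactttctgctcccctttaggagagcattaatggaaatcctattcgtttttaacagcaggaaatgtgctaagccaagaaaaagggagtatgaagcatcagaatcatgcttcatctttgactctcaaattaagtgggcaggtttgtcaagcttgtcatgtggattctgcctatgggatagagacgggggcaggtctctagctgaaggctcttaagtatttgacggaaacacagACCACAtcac
Ifng, chr10:118440796-118441045, plus strand: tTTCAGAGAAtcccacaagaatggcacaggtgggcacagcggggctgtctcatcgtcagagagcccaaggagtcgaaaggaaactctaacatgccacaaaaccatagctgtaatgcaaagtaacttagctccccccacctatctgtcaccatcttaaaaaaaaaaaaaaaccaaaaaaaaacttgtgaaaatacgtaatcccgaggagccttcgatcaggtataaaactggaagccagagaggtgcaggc
Tbx21, chr11:97115332-97115581, minus strand: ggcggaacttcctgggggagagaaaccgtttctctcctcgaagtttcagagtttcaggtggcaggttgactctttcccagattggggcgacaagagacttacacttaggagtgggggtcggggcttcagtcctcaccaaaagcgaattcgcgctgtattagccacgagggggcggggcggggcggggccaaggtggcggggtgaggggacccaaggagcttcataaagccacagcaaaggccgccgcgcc
The capitals in Cxcr6 are the RUNX letters TGTGGT read on the opposite strand, 10 bases before the start. The capitals in Ifng are the STAT letters TTCNNNGAA, 249 bases before the start. The window of Cxcr3 held the RUNX letters on the opposite strand, 110 bases before its start. The T-box letters GGTGTGA were in none of the windows of these 4 genes. Both strands were searched. Of 32851 promoter windows of this length, 14.0% held the RUNX letters, 7.02% the STAT letters and 3.33% the T-box letters. A match is a description of letters and shows no binding.

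Members were far more frequent in SAT and VAT than in BAT or spleen. They made up 4.09% ± 1.70 of BAT T cells, 23.5% ± 4.81 of SAT T cells, 22.0% ± 5.37 of VAT T cells and 1.27% ± 0.296 of spleen T cells (SD, n = 4 each). The BAT samples had 2.98%, 3.32%, 6.62% and 3.45%, and the SAT samples had 27.7%, 26.1%, 16.8% and 23.4%. The VAT samples had 27.0%, 25.8%, 15.7% and 19.5%, and the spleen samples had 1.45%, 1.41%, 0.830% and 1.41%. The ranges of SAT and VAT overlapped, every sample of both lay above every BAT sample, and every BAT sample lay above every spleen sample. With cells thinned to 1300 UMIs and the rule applied again, the BAT samples had 0.199%, 0.723%, 1.77% and 1.70%. The spleen samples then had 0.581%, 0%, 0.239% and 0.706%, so that these tissues overlapped. These thinned shares rested on only 1, 3, 12 and 11 BAT cells and 2, 0, 2 and 7 spleen cells. Before thinning, T cells had medians of 5353, 5416.5, 4302 and 4070.5 UMIs in the BAT samples. The medians were 6607.5, 6649, 5088 and 4991.5 UMIs in the spleen samples. Every spleen sample lay below the 3% of barcodes without a Trbc gene, some of which may be T cells, and the part of free RNA in the spleen shares was not tested. The BAT samples other than replicate 3 lay inside the interval of 1.11% to 6.42% around that value, and replicate 1 lay below 3%.

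Shares were compared with an exact permutation test of the tissue labels within experiments, 2-sided, with p-values adjusted over 6 pairs. SAT exceeded VAT by 1.54 percentage points (exact permutation p = 0.444). The difference was 0.510 in experiment 1 and 2.57 in experiment 2, and it was -0.0879 with cells thinned to 1300 UMIs and -0.573 without VAT replicate 3. Each of the other 5 pairs gave p = 0.0556 in the exact permutation test, which is as small as this design allows, and 0.0667 after adjustment, so none could pass 0.05. BAT minus SAT was -19.4 percentage points, with -23.8 in experiment 1 and -15.1 in experiment 2. BAT minus VAT was -17.9, with -23.3 and -12.5. After thinning to 1300 UMIs BAT averaged 1.10%, SAT 5.39%, VAT 5.48% and spleen 0.382%, with 15 and 784 shallower T cells of libraries 1 and 2 left out.

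**Figure D1:**
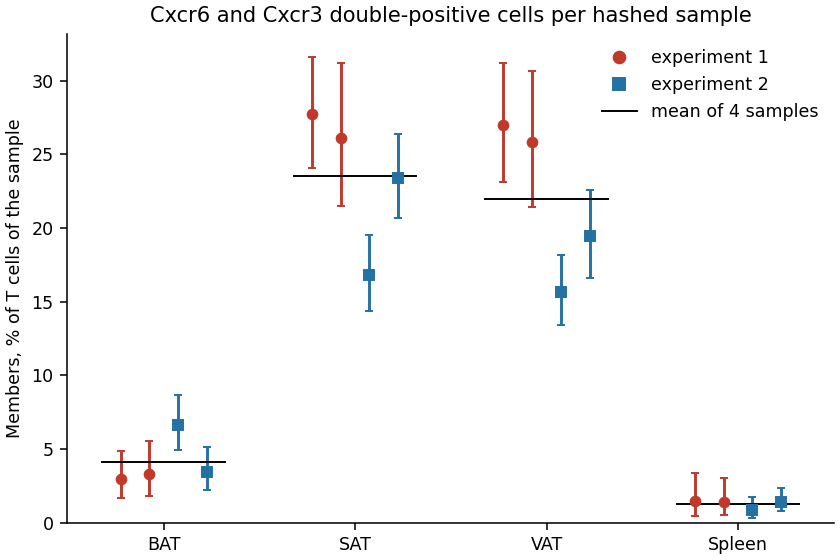
Members as a percentage of the T cells of each hashed sample, by tissue. Points are samples with exact 95% binomial intervals, circles are experiment 1, squares are experiment 2, and lines are means of 4 samples. SAT and VAT lie between 15.7% and 27.7%, BAT between 2.98% and 6.62% and spleen between 0.830% and 1.45%.

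Members were compared with double-zero cells of the same hashed sample to ask which genes differed between these classes. Naive genes were common in double-zero cells. Lef1 was found in 77.6% of them and 38.4% of members, and Ccr7 in 59.3% and 13.3%. Differences that go with the receptors and differences from naive cells cannot be told apart here. The counts of each class were summed per sample in the 10 samples with at least 20 cells of both classes, which were BAT replicates 3 and 4 and all samples of SAT and VAT. Of 7152 genes tested, 40.5% were called at a Benjamini-Hochberg adjusted p under 0.05 in edgeR's quasi-likelihood test, 1455 higher in members (20.3%) and 1443 lower (20.2%). Values below are counts scaled to 1000000 per sum (CPM), as the lowest, median and highest of the 10 samples, and fold changes are log2. Within such sums, fewer cells with a transcript and fewer transcripts per cell cannot be told apart. With scaling by library size alone 3598 genes were called, 2827 higher and 771 lower, and the median fold change over all genes was 0.21 in place of -0.01. Experiment 1 alone gave 1761 calls.

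Regulators of Th1 cells were mostly higher. Of the list of Th1 regulators and receptors 9 of 14 genes were tested, 8 were higher and 1 was lower, with a median of 1.16 against -0.01 over all genes. Tbx21, at chr11:97098071-97115331 on the minus strand, had 52.1, 95.5 and 157 CPM in members and 1.71, 15.7 and 35.6 CPM in double-zero cells. The classes did not overlap, and Tbx21 was higher in members of 10 of 10 samples by 2.51 ± 0.14 (SE; edgeR adjusted p = 3.1e-12). The log2 ratio of mean CPM + 1 was 2.37 in experiment 1 and 2.92 in experiment 2. Id2, which restrains E proteins, had 715, 891 and 1149.9 CPM in members and 30.8, 143 and 219.9 CPM in double-zero cells, also without overlap (log2 fold change 2.69).

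Of the effector cytokines and chemokines 12 of 18 were tested, 8 were higher and 2 lower, with a median of 1.27. Ifng, at chr10:118441046-118445892 on the plus strand, had 159, 264 and 389 CPM in members and 4.28, 41.4 and 76.2 CPM in double-zero cells. Every member value lay above every double-zero value, and the log2 fold change was 2.49 ± 0.20 (SE; edgeR adjusted p = 5.5e-10). The log2 ratio of mean CPM + 1 was 2.28 in experiment 1 and 2.96 in experiment 2. Il2, the T cell growth factor, had 64.2, 86.5 and 109 CPM in members and 3.85, 9.83 and 23.5 CPM in double-zero cells, without overlap (log2 fold change 2.78). The lower genes were Tnfsf8, the CD30 ligand, at -1.13, and Ltb, lymphotoxin beta, at -0.26, which lost its call with library sizes alone (-0.03, edgeR adjusted p = 0.66). Against double-zero cells with the exclusions of members applied to both classes, Ifng was at 3.12 (edgeR adjusted p = 4.1e-12) and Tbx21 at 2.95 (adjusted p = 4.2e-12).

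Receptors of migration split in both directions. Of the chemoattractant receptors and egress genes 12 of 20 were tested, 3 were higher and 6 lower. Ccr2, the receptor for CCL2, had 148, 161 and 245 CPM in members and 4.71, 21.9 and 97.7 CPM in double-zero cells, with no overlap and a log2 fold change of 2.51 ± 0.24 (SE; edgeR adjusted p = 1.7e-08). Ccr7 had 6.65, 12.3 and 30.5 CPM in members and 205, 285 and 375 CPM in double-zero cells. It was lower in 10 of 10 samples without overlap, at -4.29.

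All 17 genes of the naive and recirculating list were tested and lower in members, with a median of -2.48; the list includes Ccr7. Igfbp4, a binding protein of insulin-like growth factors, had 0, 7.33 and 16.0 CPM in members and 154, 262 and 335 CPM in double-zero cells (log2 fold change -4.91). Dapl1 had 0, 20.1 and 37.2 CPM in members and 205, 266 and 374 CPM in double-zero cells (-4.02). Neither gene overlapped between the classes. Of the adhesion and tissue retention genes 14 of 16 were tested, 13 were higher and 0 lower, with a median of 1.40. Zfp683, which encodes the residency regulator Hobit, had 18.3, 22.7 and 30.6 CPM in members and 0, 2.69 and 7.31 CPM in double-zero cells (2.85). P2rx7, an ATP-gated channel, had 82.1, 99.0 and 143 CPM in members and 5.23, 18.7 and 36.7 CPM in double-zero cells (2.39).

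Of 14 S100, annexin and galectin genes, all tested, 13 were higher and 0 lower, with a median of 1.82. S100a4, a calcium-binding protein of motile cells, had 1240.4, 1538 and 1818 CPM in members and 27.0, 219 and 458 CPM in double-zero cells. The classes stood apart, with a log2 fold change of 2.81 ± 0.23 (SE; edgeR adjusted p = 1.3e-09). S100a6 was higher by 2.59. Of the cell cycle genes 11 of 12 were tested and all of these were higher, with a median of 1.72. Birc5, which encodes survivin, ranged over 0 to 115 CPM in members and 0 to 33.4 CPM in double-zero cells, and its classes overlapped (2.98, higher in 9 of 10 samples).

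The highest fold changes that held in every sample also included Asb2, of the Tfh list, and several genes outside the lists. Ube2c, a ubiquitin-conjugating enzyme of mitosis, ranged over 8.69 to 214 CPM in members and 0 to 49.1 CPM in double-zero cells, with overlap (3.52). Socs2, a suppressor of cytokine signalling, had 149, 259 and 341 CPM in members and 3.22, 24.4 and 60.5 CPM in double-zero cells (2.96). Asb2, part of a ubiquitin ligase, was higher by 3.12, the inhibitory receptor gene Lilrb4a by 3.35, and the gelatinase gene Mmp9 by 2.82. The potassium channel gene Kcnk5 also passed the rule. Stk32c, Podnl1, Chst2 and Ttc39c were higher by 3.36, 3.08, 2.85 and 2.82. Among the lowest were Bambi-ps1 at -4.97, Slc28a2b at -4.81, St8sia6 at -4.26, Atp1b1, a sodium pump chain, at -4.03, Pdlim4 at -3.97 and Tmie at -3.82. Bambi-ps1 is a pseudogene, whose reads may be shared with its parent gene.

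Of the cytotoxic granule and NK-type receptor genes 11 of 18 were tested, 9 were higher and 2 lower. Nkg7, a granule membrane protein, had 526, 765 and 1155 CPM in members and 19.3, 106 and 167 CPM in double-zero cells (2.66), and Klrk1, which encodes NKG2D, was higher by 2.53. Prf1, which encodes perforin, and Klrd1, which encodes CD94, were lower, at -2.23 and -1.43. Cells with granzymes or Klrb1c were removed from members and not from double-zero cells. With the same exclusions in both classes Klrd1 was at -1.065 (edgeR adjusted p = 0.0022). Prf1, Klrk1 and Ube2c did not pass the filter on low counts there, so they were not tested with these exclusions. The same exclusions moved other genes by more than 1.5 times in fold: Ccr2 was then at 3.55, Nkg7 at 3.26, Stk32c at 4.26, Birc5 at 3.69, Entpd1 at 2.36, Trgv2 at 4.22 and Cd74 at -1.64, and all of these were still called by edgeR.

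Lists of other helper types gave mixed counts. The Th17 list had 4 of 11 tested, 2 higher and 0 lower, and the higher genes were Maf, a regulator of several helper types, at 2.00 and Rora, which encodes a nuclear receptor, at 1.88. The Th2 list had only Gata3 tested, higher by 0.77. The Tfh list had 4 of 10 tested, 1 higher and 3 lower: Asb2 was the higher gene, and Slamf6 at -1.19 and Tox at -0.54 were among the lower. The Treg list had 7 of 12 tested, 3 higher and 1 lower, with Il2rb, an interleukin-2 receptor chain, at 2.49 and Izumo1r at -0.52. The list of inhibitory receptors had 6 of 12 tested, 4 higher and 1 lower. It also holds Entpd1, which encodes the enzyme CD39 and was at 1.77. Costimulatory receptors had 11 of 12 tested, 8 higher and 1 lower, with Cd226 at 2.29 and Cd27 at -0.79.

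Immediate early and heat shock genes had 18 of 20 tested, 14 higher and 2 lower. The AP-1 gene Fosb was higher by 1.82 and Nr4a3, an orphan nuclear receptor, by 1.56, while Jun was lower at -0.79. Glycolysis and glucose uptake genes had 12 of 16 tested, 7 higher and 0 lower, with the glucose transporter Slc2a3 at 1.76. Lipid genes had 11 of 15 tested, 3 higher and 0 lower, with a median of 0.215 and Dgat1, an enzyme of triglyceride synthesis, at 0.99. Type I interferon-stimulated genes had 11 of 12 tested, 5 higher and 1 lower, with a median of 0.19. The antiviral GTPase Mx1 was at 2.43 and did not pass the filter on low counts with the same exclusions in both classes. Interferon-gamma-inducible GTPases had 11 of 12 tested, 6 higher and 0 lower, with a median of 0.33 and Gbp7 at 0.62. Over all genes tested 40.5% were called, and the median was -0.01.

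Markers of other cells moved with this comparison. Erythroid markers had 3 of 5 tested, 0 higher and 3 lower, and their sum was 7.64 to 141 CPM in members and 20.1 to 3341 CPM in double-zero cells. Stromal and fat markers had 1 of 8 tested, 0 higher and 1 lower, namely Fabp4 at -4.62, and their sum was 0 to 74.8 CPM in members and 1.20 to 1837 CPM in double-zero cells. Myeloid markers had 2 of 10 tested, 0 higher and 1 lower, namely Cd74 at -2.31, with a sum of 113 to 356 CPM in members and 77.0 to 6371 CPM in double-zero cells. B cell markers had 1 of 6 tested, 0 higher and 1 lower, namely Ighm at -0.67, with a sum of 99.2 to 509 CPM in members and 178 to 532 CPM in double-zero cells. In the list of CD8, gamma-delta T and NK cells Trgv2 was higher by 2.79 and Cd8b1 lower at -0.97, which lost its call in 9 alternatives, among them library sizes alone, sums per library (-0.47), experiment 1 alone (-0.05) and leaving out any 1 of SAT replicates 3 and 4 and VAT replicates 3 and 4. In experiment 1 alone the haemoglobin gene Hba-a1 was at -0.33 (edgeR adjusted p = 0.50), and in experiment 2 alone Cd74 was at 0.21 (adjusted p = 0.73). The part of these cells in the other differences was not tested.

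**Figure D2:**
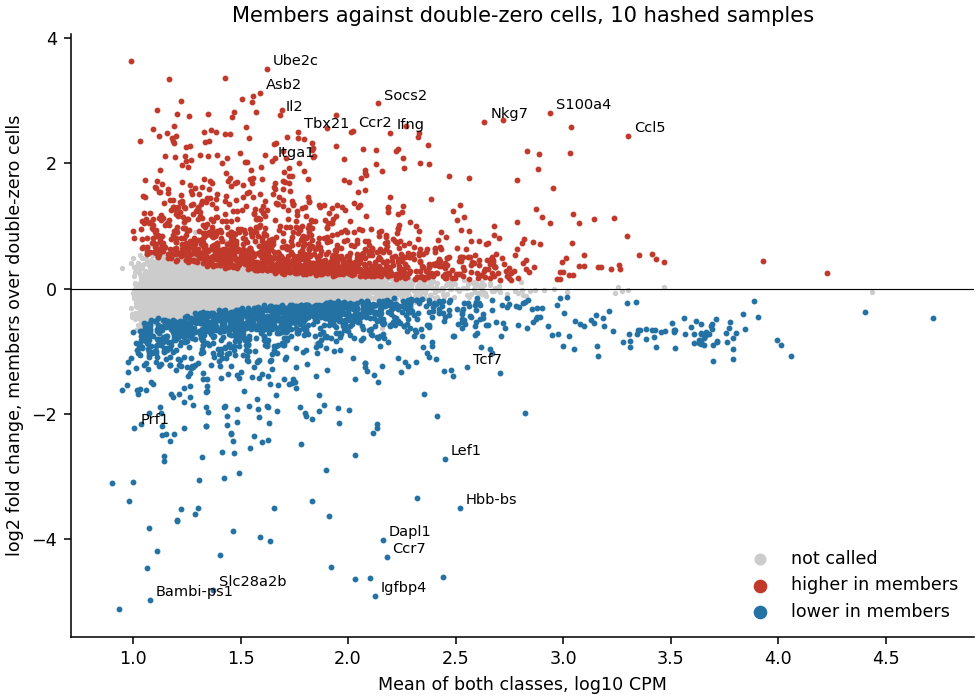
Log2 fold change of members over double-zero cells against the log10 mean CPM of both classes, for 7152 genes in 10 hashed samples. Red genes were higher (1455) and blue genes lower (1443) in members at an edgeR adjusted p under 0.05, and some labelled genes were chosen after their values were seen. Ifng and Tbx21 lie at 2.49 and 2.51, and Ccr7 at -4.29.

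**Figure D3:**
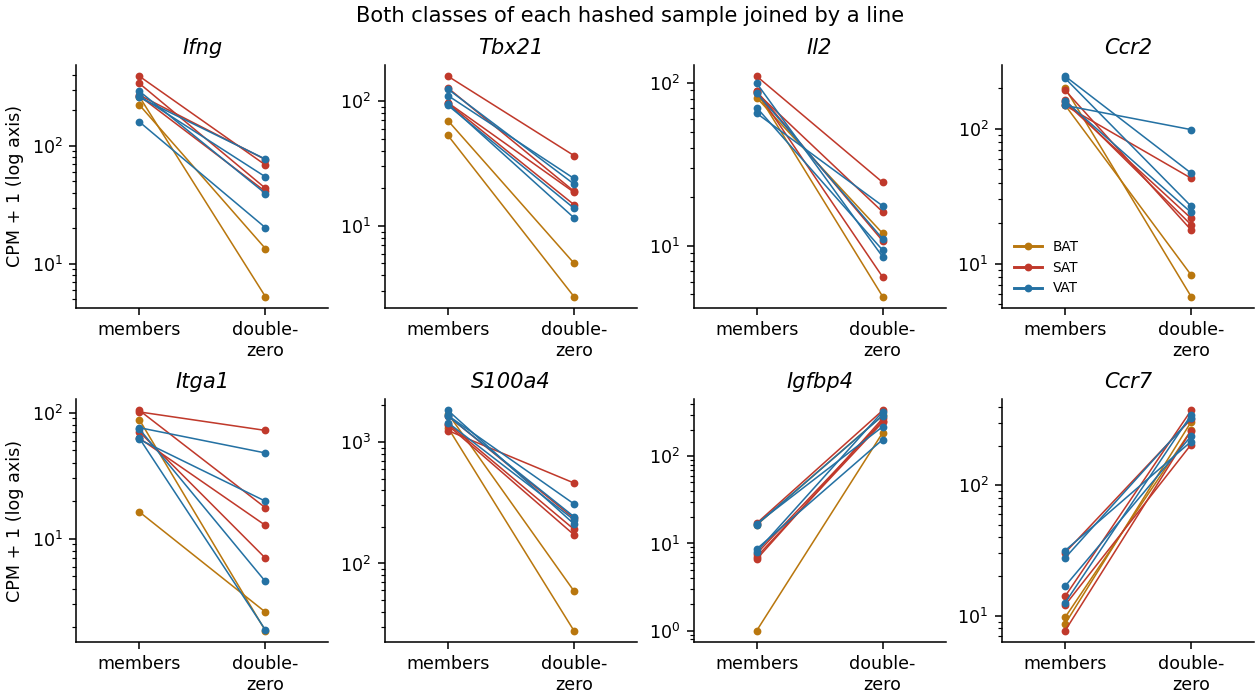
CPM + 1 on a log axis in members (left) and double-zero cells (right), where each line joins both classes of 1 of 10 hashed samples, coloured by tissue. Ifng, Tbx21, Il2, Ccr2 and S100a4 are higher and Igfbp4 and Ccr7 lower in members of all 10 samples, and Itga1, chosen after its values were seen, had a log2 fold change of 2.04.

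Values just inside and outside the receptor thresholds are given as CPM pooled over the cells of libraries 1 and 2, with no test. Ifng had 255 and 245 CPM in members with at least 2 UMIs of each receptor and 279 and 391 CPM in members with 1 UMI of each. It had 183 and 127 CPM in Cxcr6-only cells, 157 and 117 CPM in Cxcr3-only cells and 19.3 and 20.2 CPM in double-zero cells. Cells with both receptors that were left out for a granzyme had 235 and 435 CPM, and those left out for Klrb1c had 209 and 311 CPM, against 262 and 270.3 CPM in all members. In both libraries Ifng was higher in members than in cells with 1 receptor, and lowest in double-zero cells, while the cells left out lay below all members in library 1 and above them in library 2. S100a4 had 1434 and 1629 CPM in members with at least 2 UMIs of each and 866 and 906 CPM in those with 1 UMI, against 1089.9 and 1084 CPM in Cxcr6-only cells and 647 and 615 CPM in Cxcr3-only cells. Members with 1 UMI of each thus lay between the single-receptor classes for S100a4.

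**Figure D4:**
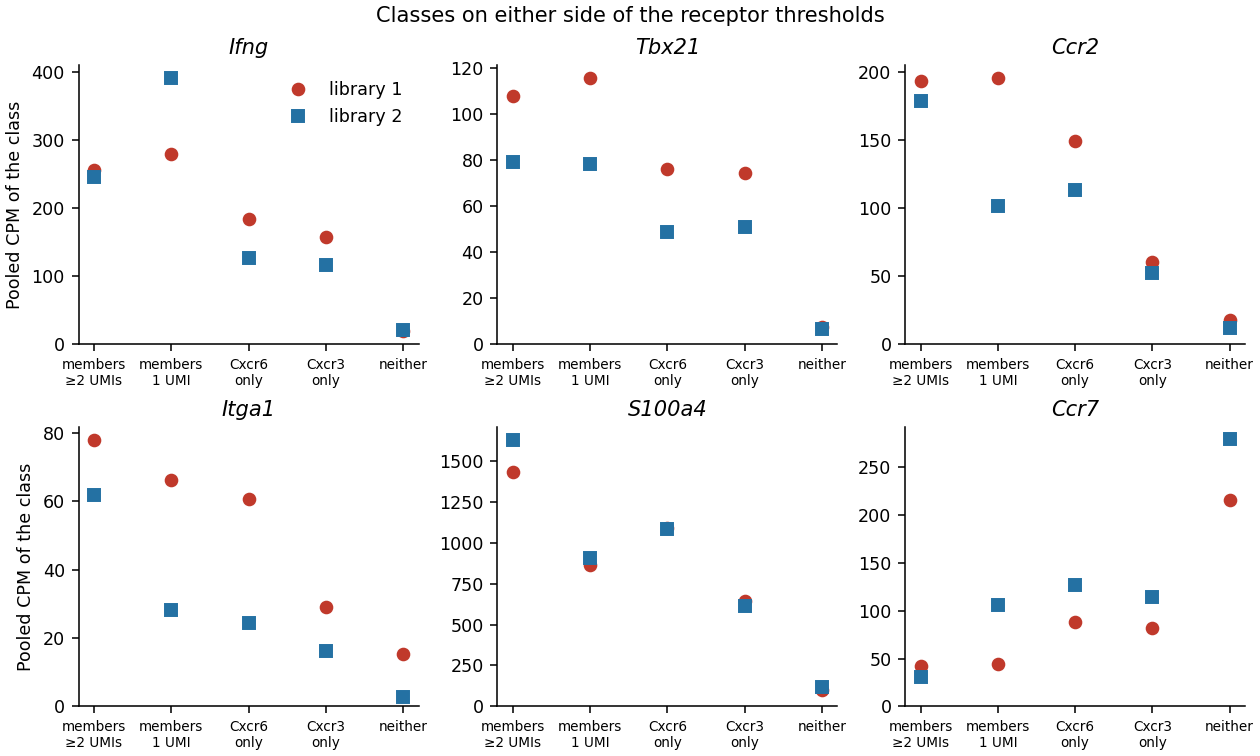
Pooled CPM of 6 genes in members with at least 2 UMIs of each receptor, members with 1 UMI of each, Cxcr6-only, Cxcr3-only and double-zero cells. Circles are library 1 and squares library 2. Ifng and Tbx21 are higher in both member classes than in cells with 1 receptor.

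The 1410 Cxcr3-only cells had Cxcr3, no UMI of Cxcr6 and the same exclusions. Their medians were 6200.5 and 4262 UMIs in libraries 1 and 2, against 6228.5 and 4759 in members. A count of 0 may be a missed transcript, so some Cxcr3-only cells may carry both receptors. Members differed from Cxcr3-only cells in 9.17% of 6042 genes tested in the same 10 samples, 289 higher (4.78%) and 265 lower (4.39%). Experiment 1 alone gave 107 calls. Itga1, the alpha-1 integrin chain that binds collagen, had 15.3, 71.3 and 103 CPM in members and 10.1, 19.7 and 55.5 CPM in Cxcr3-only cells. The classes overlapped, but Itga1 was higher in members of 10 of 10 samples, by 1.49 ± 0.15 (SE; edgeR adjusted p = 1.2e-08). Ccr2 had 148, 161 and 245 CPM in members and 11.7, 71.9 and 85.6 CPM in Cxcr3-only cells, without overlap (1.34). Ctsw, a granule protease, had 232, 286 and 358 CPM in members and 70.2, 115 and 155 CPM in Cxcr3-only cells, also without overlap (1.20). Fgl2 was higher by 1.43, the annexin gene Anxa1 by 1.42 and Klrk1 by 1.32.

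Both defining Th1 genes were higher in members than in Cxcr3-only cells. Ifng was higher by 0.68 ± 0.12 (SE; edgeR adjusted p = 0.00013) in 9 of 10 samples, with 159, 264 and 389 CPM in members and 35.1, 130.1 and 278 CPM in Cxcr3-only cells. Tbx21 was higher by 0.44 ± 0.10 (SE; edgeR adjusted p = 0.0021) in 9 of 10 samples. The chemokine genes Xcl1 and Ccl5 were higher by 0.99 and 0.83. Of 15 of 17 naive genes tested, 0 were higher and 14 lower, with Dapl1 at -2.16, Ccr7 at -1.93 and Il6ra, an interleukin-6 receptor chain, at -1.48. Adk, adenosine kinase, was lower at -1.39, Slamf6 at -1.20 and Tnfrsf4, which encodes OX40, at -1.24. Tbx21 lost its call with cells thinned to 1000 UMIs (0.28), Ifng and Tbx21 lost theirs in experiment 1 alone (0.48 and 0.37), and Xcl1 with DESeq2 (1.47).

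Other T cell lists gave mixed counts against Cxcr3-only cells. Cytotoxic granule and NK-type receptor genes had 8 of 18 tested, 6 higher and 0 lower, and costimulatory receptors had 11 of 12 tested, 5 higher and 2 lower. The Th17 list had 2 of 11 tested, 1 higher and 0 lower, with Rora at 0.47. The Treg list had 7 of 12 tested, 1 higher and 4 lower, with a median of -0.74, where Nrp1, a semaphorin receptor, was at -0.93, Ctla4 at -0.86 and Il2rb at 0.36. The Tfh list had 5 of 10 tested, 1 higher and 4 lower, with Izumo1r, also of the Treg list, at -0.79 and Asb2 at 1.08. The list of inhibitory receptors had 6 of 12 tested, 1 higher and 4 lower. Its enzyme genes Nt5e, which encodes CD73, and Entpd1 were at -1.01 and 0.86. Cells with Foxp3 were left out of both classes. Myeloid markers had 2 of 10 tested, 0 higher and 1 lower, namely Cd74 at -1.33, with a sum of 113 to 356 CPM in members and 111 to 1989 CPM in Cxcr3-only cells. The call of Cd74 was lost with DESeq2 (-0.42) and without any 1 of SAT replicates 2 and 4 and VAT replicate 1. In the list of CD8, gamma-delta T and NK cells Trgv2 was higher by 1.01, the 1 gene tested, and lost its call without SAT replicate 4 (0.85, edgeR adjusted p = 0.066). The part of these cells in the other differences was not tested.

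The 635 Cxcr6-only cells had Cxcr6, no UMI of Cxcr3 and the same exclusions. Their medians were 5689 and 3282 UMIs in libraries 1 and 2, against 6228.5 and 4759 in members. Several samples' hashtags marked 7.18% and 19.4% of them. Some Cxcr6-only cells may likewise carry both receptors, with a missed transcript of Cxcr3. Against these cells 0.861% of 5108 genes were called in the 8 SAT and VAT samples, 23 higher (0.45%) and 21 lower (0.411%). In experiment 1 alone edgeR called 0, with 293 at an unadjusted p under 0.05, and in experiment 2 alone 69. Klf2, a regulator of egress, had 161, 307 and 334 CPM in members and 249.98, 468 and 643 CPM in Cxcr6-only cells. It was lower in members of 8 of 8 samples, at -0.74 ± 0.09 (SE; edgeR adjusted p = 2.5e-06), although the classes overlapped. Tmem176a and Tmem176b were lower at -1.90 and -1.54, Satb1, a chromatin organiser, at -1.21 and Tnfrsf4 at -1.59. Of 11 of 17 naive genes tested 0 were higher and 7 lower. Higher in members were the mitotic genes Cenpf at 2.17 and Prc1 at 1.71, and Socs2 at 0.69, Ly6c2 at 0.53 and Hopx at 0.49. Ifng was higher by 0.50 (edgeR adjusted p = 0.024) in 7 of 8 samples. Tbx21 was not called, at 0.36 (edgeR adjusted p = 0.41), with 91.4, 103 and 157 CPM in members and 49.1, 73.2 and 181 CPM in Cxcr6-only cells. The call of Ifng was lost with cells thinned to 1000 UMIs, in each experiment alone and without any 1 of SAT replicates 1, 2 and 4 and VAT replicates 1 and 3 (0.42 to 0.51). Thinning also ended the calls of Socs2, Ly6c2 and Hopx.

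Members of SAT were set against members of VAT in 1 fit over the 13 hashed samples with at least 10 members, with experiment as a term. The SAT samples held 87 to 208 members and the VAT samples 94 to 147. Of 8834 genes 0.849% were called, 53 higher in SAT (0.6%) and 22 lower (0.249%). Experiment 1 alone gave 4 calls and experiment 2 alone 33. The count was 36 without SAT replicate 1 and 129 without BAT replicate 1. Ifng had 389, 264, 269 and 338 CPM in SAT members of replicates 1 to 4, against 256, 264, 289.9 and 159 CPM in VAT members. Tbx21 had 157, 126, 94.9 and 96.1 CPM in SAT members, against 109.7, 124, 93.6 and 91.4 CPM in VAT members. Both genes overlapped between the depots and neither was called, at 0.35 (edgeR adjusted p = 0.27) and 0.15 (edgeR adjusted p = 0.76).

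Several genes that interferons induce were higher in SAT members. Of type I interferon-stimulated genes 11 of 12 were tested, 3 higher and 0 lower, with a median of 0.72 against 0.00 over all genes. Of interferon-gamma-inducible GTPases 12 of 12 were tested, 4 higher and 0 lower, with a median of 0.52. Bst2, which encodes tetherin, had 170.3, 181, 216 and 377 CPM in SAT members, against 129.8, 87.1, 155 and 148 CPM in VAT members, without overlap (0.81). Iigp1, an immunity-related GTPase, had 45.1, 39.9, 45.4 and 64.4 CPM in SAT members, against 25.3, 10.7, 33.4 and 11.3 CPM in VAT members (1.19), and lost its call without any 1 of SAT replicates 1 and 4 or VAT replicates 2 and 4 (adjusted p of 0.083, 0.079, 0.053 and 0.15). Ifit1 and Gbp6 were higher by 1.44 and 1.78, and lost their calls without any 1 of 5 and of 4 SAT or VAT samples.

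The chemokine gene Xcl1 had 153, 293, 229.8 and 212 CPM in SAT members, against 87.6, 53.5, 89.8 and 128 CPM in VAT members, without overlap (1.24), and was not called with cells thinned to 1000 UMIs (0.51, edgeR adjusted p = 0.59). Ccl4 was higher by 1.91 (edgeR adjusted p = 0.021), and without SAT replicate 4, at 272 CPM, it was at 0.65 (adjusted p = 0.63), and it also lost its call without SAT replicate 1 or VAT replicate 3 or 4. Of the cell cycle genes 12 of 12 were tested, 4 higher and 0 lower, with a median of 0.67. Stmn1, a regulator of microtubules, had 383, 386, 345 and 258 CPM in SAT members, against 254, 105, 106 and 139 CPM in VAT members, without overlap (1.11), and lost its call without VAT replicate 3 (1.01, edgeR adjusted p = 0.092). The histone gene H1f5 had 354, 442, 207 and 73.7 CPM in SAT members, against 209.9, 26.0, 8.98 and 15.5 CPM in VAT members (1.97), and lost its call with the deepest cells left out (0.87, adjusted p = 0.46).

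Genes lower in SAT members included a pair of cold-inducible RNA-binding proteins. Rbm3 had 444, 379, 571 and 423 CPM in SAT members, against 808, 744, 909 and 835 CPM in VAT members. Cirbp had 67.1, 61.5, 80.2 and 57.8 CPM in SAT members, against 122, 141, 119 and 148 CPM in VAT members. Every SAT sample lay below every VAT sample for both, at -0.90 ± 0.10 (SE; edgeR adjusted p = 2.7e-06) for Rbm3 and -1.03 ± 0.13 (SE; edgeR adjusted p = 1.8e-05) for Cirbp. Tmem176b had 13, 8.31, 10.7 and 14.9 CPM in SAT members, against 27.4, 59.6, 61.6 and 56.3 CPM in VAT members, without overlap (-2.06). Tmem176a was lower at -2.21, Smad7, an inhibitor of TGF-beta signals, at -0.94, Gzmk at -1.74 and Hspa1b at -0.69. Gzmk lost its call without any 1 of SAT replicates 1 and 4 and VAT replicate 3, and Hspa1b without any 1 of SAT replicate 3 and VAT replicates 1 and 3. Thinning to 1000 UMIs ended the calls of Cirbp (-0.89), Smad7 (-1.18), Hspa1b (-0.93), Bst2 (0.59), Stmn1 (0.97) and Ccl4 (1.08).

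Markers of B cells and of myeloid cells moved with the same comparison. The sum of the B cell markers was 99.2 to 174 CPM in SAT members and 135 to 509 CPM in VAT members, and of 5 of 6 tested 2 were lower in SAT. Igkc was at -3.76, and without VAT replicate 2, at 225 CPM, it was at -0.995 (edgeR adjusted p = 0.80). Cd79a was at -4.92, with 0, 0, 0 and 0.933 CPM in SAT members, against 2.11, 45.8, 0 and 19.7 CPM in VAT members, and without VAT replicate 2 it was at -3.62 (adjusted p = 0.26). Both genes also lost their calls without SAT replicate 1 or 2, and Cd79a without VAT replicate 4. Myeloid markers had 5 of 10 tested, 0 higher and 1 lower in SAT, with a median of -1.41, and their sum was 127 to 158 CPM in SAT members and 119 to 356 CPM in VAT members. The lower gene was Cd74, which B cells also express, at -2.17; it was at 0.17 with the deepest cells left out, and its call was lost without VAT replicate 2 or 4. The part of B cell and myeloid RNA in the other differences was not tested.

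Whether the difference between members and double-zero cells itself differed between SAT and VAT was tested with an interaction term, which called 0.0122% of 8198 genes, or 1 gene. For Ifng the interaction was -0.03 (edgeR adjusted p = 1) and for Tbx21 -0.22 (edgeR adjusted p = 0.94). The called gene was the histone gene H4c4. In SAT it had 326, 471, 255 and 128 CPM in members and 72.2, 91.1, 92.3 and 62.0 CPM in double-zero cells. In VAT it had 295, 91.6, 115 and 131 CPM in members and 179, 85.3, 134 and 124 CPM in double-zero cells. Its interaction was 1.55 ± 0.25 (SE; edgeR adjusted p = 0.049), and it was not called with stricter hashtag calls, with cells thinned to 1000 UMIs, with the deepest cells left out or without any 1 of SAT replicate 1 and VAT replicates 2, 3 and 4. The genes named above as different between SAT and VAT members were thus not shown to be particular to members.

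Members of BAT numbered 15, 14, 48 and 23 in replicates 1 to 4 and were set against SAT members in the same fit. Of 8834 genes 0.0566% were called, 2 higher (0.0226%) and 3 lower (0.034%) in BAT, and a replicate block gave 17. No interaction term was fitted for BAT and SAT, so whether these differences were particular to members was not tested. Hspa1b, an inducible HSP70 chaperone, had 256, 229, 363 and 426 CPM in BAT members, against 112, 106, 62.8 and 86.7 CPM in SAT members. Its depots did not overlap, and the log2 fold change was 1.84 ± 0.19 (SE; edgeR adjusted p = 1.6e-07). Hspa1a, its near-identical neighbour, had 140.5, 344, 382 and 174 CPM in BAT members, against 92.2, 74.8, 33.4 and 46.6 CPM in SAT members (2.15). The reads of these 2 genes can be hard to assign, so their values are uncertain one by one. Ly6c2 had 109.9, 241, 153 and 217 CPM in BAT members, against 285, 372, 323 and 371 CPM in SAT members (-1.02). Junb was lower at -0.66 and H1f5 at -2.98, which lost its call without any 1 of BAT replicates 1, 2 and 4 and spleen replicate 4. Ifng and Tbx21 were not called, at -0.58 (edgeR adjusted p = 0.34) and -0.79 (edgeR adjusted p = 0.19). With at least 20 members per sample Ly6c2, Junb and H1f5 lost their calls (-0.95, -0.34 and -1.83). Ly6c2 also lost its call with thinning, and Junb with DESeq2 (-0.60) and without BAT replicate 2. H1f5 was also not called with DESeq2 (-3.03), thinning (-2.10) or the deepest cells left out (-4.18), at adjusted p of 0.63, 0.55 and 0.29.

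**Figure D5:**
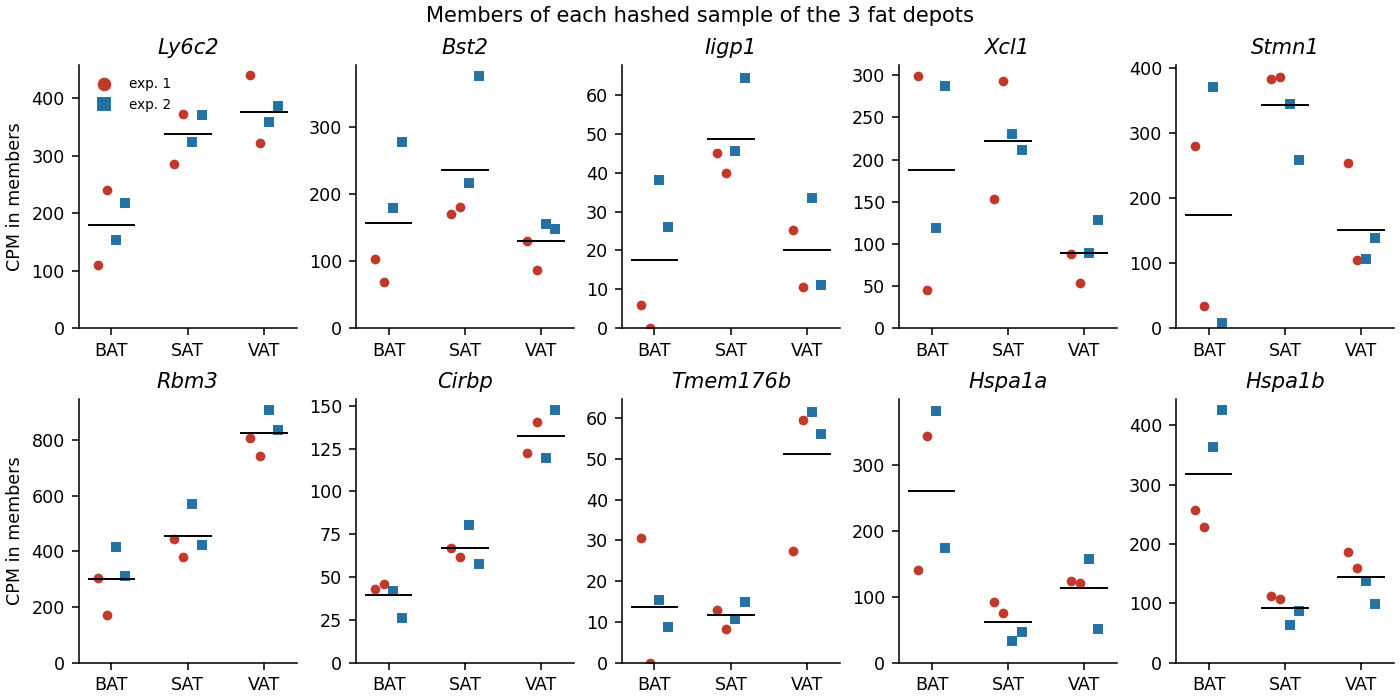
CPM of 10 genes in members of each hashed sample of BAT, SAT and VAT. Circles are experiment 1, squares are experiment 2, and lines are means of 4 samples. Bst2 is higher and Rbm3, Cirbp and Tmem176b are lower in every SAT sample than in every VAT sample, and Hspa1b in BAT lies between 229 and 426 CPM.

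The 32 spleen members were too few per sample for a comparison and are given pooled, with no test. Ifng had 8 UMIs, or 39.2 CPM, against 213 CPM in the pooled members of BAT, 325 CPM in SAT and 244 CPM in VAT. Tbx21 had 22 UMIs, or 108 CPM in spleen, against 66.9 CPM in BAT, 119 CPM in SAT and 104 CPM in VAT. S100a4 had 279 CPM in spleen, against 1328 CPM to 1621 CPM in the fat depots. In spleen replicate 4, the only spleen sample with at least 10 members, Tbx21 had 141 CPM in 14 members and 0.680 CPM in double-zero cells. Pooled spleen members had lower CPM of Ifng and S100a4 than those of each fat depot, while Tbx21 lay within the range of the depots.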

How the data were processed

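Raw UMI counts of single cells were deposited as 1 matrix per library, written by Cell Ranger 6.1.0 per the file headers. The genome build mm10, bcl2fastq and Seurat are named in the submitters' processing notes, with settings not given in the sources used here. The deposited counts were used unscaled, for genes and for hashtags.

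Barcodes were kept with at least 500 genes, 1000 UMIs and under 10% mitochondrial UMIs, and T cells had at least 1 UMI of Trbc1 or Trbc2. Hashtags were assigned with a mixture model at a posterior of 0.95, and cells with several hashtags were left out of sample sums; no other doublet caller was run. Counts were summed per hashed sample and class and tested with edgeR 4.0.16 in R 4.3.3 (TMM, filterByExpr with a minimum count of 10, quasi-likelihood), with the hashed sample as a block for classes and experiment as a term for tissues. DESeq2 1.42.0 was an alternative. Other steps used Python 3.11.15, numpy 2.4.6, pandas 2.3.3 and scipy 1.17.1. The tests were checked on simulated data.

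Some members of the gene lists are not reported here by name. The members, gene lists and tests were chosen with earlier results of these data known. Named genes were the 12 highest and 10 lowest called fold changes against double-zero cells, 8 and 8 for SAT against VAT and 6 and 6 otherwise, with a mean of at least 20 CPM in 1 class and the same direction throughout, plus up to 2 highest and 2 lowest called genes of each list, Ifng and Tbx21. Receptor, immunoglobulin, Gm and Rik genes were left out of the ranking. Coordinates are from GENCODE vM21 and promoters from RefSeq. Same-numbered samples correlated in their deviations from the tissue means at 0.308, 0.125, 0.176 and 0.264 over 5895 genes, but within experiments at -0.0801 and -0.0707. The labels name no animal shared by a number, and the replicate block was kept as an alternative.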

Additional observations from a re-analysis of the deposited data

Results flagged for a closer look

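8 results came from samples far from the others of their group, out of 64 groups of 4 samples examined, where chance gives about 1 in 20. That rate is for normally spread values. It may not hold for counts near 0 or for these genes, most of which were picked because they were called. The share of members in BAT was 6.62% in replicate 3, above the other BAT samples, but with cells thinned to 1300 UMIs it was 1.77% there and 1.70% in replicate 4. In spleen the share was 0.83% in replicate 3, below the others, but after the same thinning it was 0.239% there and 0% in replicate 2. Among SAT members, Cd79a stood at 0.933 CPM in replicate 4 with the others at 0, where any value above 0 would be flagged. Flot1, which encodes a raft protein, stood at 37.4 CPM in replicate 3. Among VAT members, the histone genes H1f5 and H2ac8 stood at 210.0 and 333.0 CPM in replicate 1, Igkc at 225.0 CPM in replicate 2, and Tmem176b at 27.4 CPM in replicate 1, below the others. H4c4 was the gene whose difference between members and double-zero cells differed between SAT and VAT, by 1.55 on the log2 scale in the interaction test (edgeR adjusted p = 0.049).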

How the results depend on the processing

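The count against double-zero cells was 725 with cells thinned to 1000 UMIs, 4787 with sums per library and 1761 in experiment 1 alone, and 2599 to 2902 with 1 sample left out. For SAT against VAT it was 167 without a filter on low counts, 45 with DESeq2 (of 956 genes with an adjusted p), 18 thinned, 120 without the deepest cells, 142 with at least 20 members, 204 with only the 2 tissues, 4 and 33 in experiments 1 and 2 alone, and 36 to 129 with 1 sample left out, namely 129 without BAT replicate 1, 36 without SAT replicate 1, and 43, 41 and 39 without VAT replicates 2, 3 and 4. For BAT against SAT it was 8 with library sizes, 76 unfiltered, 12 with stricter hashtag calls, 9 thinned, 8 without the deepest cells, 17 with the replicate block, 2 with at least 20 members, 12 and 9 in experiments 1 and 2 alone, and 4 to 18 with 1 sample left out, namely 18 without BAT replicate 3, 12, 16 and 9 without SAT replicates 2, 3 and 4, and 9 and 10 without VAT replicates 1 and 2. Against Cxcr3-only cells it was 174 thinned, 1043 with sums per library, 107 in experiment 1 alone and 431 to 529 with 1 sample left out. Against Cxcr6-only cells it was 153 unfiltered, 20 with DESeq2 (of 1048), 1 thinned, 155 with at least 10 cells, 385 with sums per library, 0 and 69 by edgeR in experiments 1 and 2 alone (293 in experiment 1 at an unadjusted p under 0.05), and 27 to 64 with 1 sample left out, namely 29, 29 and 27 without SAT replicate 2, VAT replicate 3 and VAT replicate 4. For the interaction it was 2 with library sizes, 59 unfiltered, 0 by edgeR with stricter hashtag calls (410 at an unadjusted p under 0.05, and 1 by DESeq2 with the usual calls), 4 thinned, 3 without the deepest cells, 19 and 15 in experiments 1 and 2 alone, and 0 to 6 with 1 sample left out, namely 0 without SAT replicate 1 or VAT replicate 2, 3 or 4, and 6 and 2 without SAT replicates 2 and 3. The cause of these changes was not tested.

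Directions that turned were those of Nfkbia against double-zero cells, 0.076 with sums per library, and Cd74, 0.21 in experiment 2 alone; of Tbx21, -0.20 thinned, and Cd74, 0.17 without the deepest cells, for SAT against VAT; of Ifi27l2a against Cxcr6-only cells, -0.011 thinned; and of the interaction of Ifng, 0.57 in experiment 1 alone and -0.3001 to 0.27 with 1 sample left out, above 0 without SAT replicate 3 (0.27), VAT replicate 3 (0.15) or VAT replicate 4 (0.083). The share of SAT minus VAT was -0.088 thinned and -0.57 to 3.77 with 1 sample left out. The other share differences ran from -21.7 to -18.0 for BAT minus SAT, -20.0 to -16.2 for BAT minus VAT, 1.98 to 3.19 for BAT minus spleen, 20.9 to 24.5 for SAT minus spleen and 19.0 to 22.8 for VAT minus spleen. With the replicate block SAT against VAT gave 86 calls, and with no replicate block the class comparisons gave 3019, 513 and 31 against double-zero, Cxcr3-only and Cxcr6-only cells. Experiments alone were examined after seeing the data.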
